A study of Mus musculus with 6 samples.

Results

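The myosin heavy chain genes were followed in hearts of male FVB pups (FVB/N in the methods) at P6 (postnatal day 6), of which 3 were hSRY-ON and 3 hSRY-OFF. The family was taken as the 8 genes Myh6, Myh7, Myh7b, Myh3, Myh8, Myh9, Myh10 and Myh11, by gene symbol, and each probe was kept apart. The table used here held 8 probes of 6 of these genes, out of 25697 probes with 18138 symbols, and no probe under the symbols Myh7b or Myh3, which were therefore not analysed here. In hSRY-ON pups a single-copy Signalox-hSRY transgene at the H11 locus had been recombined by Cre from the oocyte of a Ddx4-Cre mother, so that the ubiquitous CAG promoter drove FLAG-tagged human SRY and EGFP from the earliest embryo onwards. The hSRY-ON pups used for arrays were picked to lack the Ddx4-Cre transgene itself. The paper reports that hSRY-ON pups suckled little, had fallen behind in growth by P6 and began to die before this age. Any effect of feeding, growth or survival on the heavy chains cannot be told apart from that of the transgene here. The methods give hSRY-OFF as mice with the unrecombined transgene, in which CAG drives DsRed2, while the description of the crosses gives controls with no Signalox-hSRY transgene at all, so the control genotype is uncertain. No probe for the human transgene was analysed here, so the labels were not checked against it. The tissue is named only as heart, without word on how it was dissected. In such tissue, fewer cells of a type and less RNA per cell cannot be told apart.

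A myosin heavy chain is the motor subunit of myosin II. Its head binds actin and splits ATP, and its coiled-coil tail assembles into filaments. Myh6 encodes the fast alpha chain and Myh7 the slower, more economical beta chain of heart muscle. In mice the beta chain prevails in the fetal ventricle and gives way to the alpha chain around birth, under the influence of thyroid hormone, and Myh7 returns in the loaded or hypothyroid adult heart. Myh3 and Myh8 encode the embryonic and perinatal chains of skeletal muscle, Myh11 the smooth muscle chain, and Myh9 and Myh10 the non-muscle chains IIA and IIB, which serve cell shape, adhesion and division.

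Myh6 and Myh7 are neighbouring genes on mouse chromosome 14, and each carries a microRNA of its own inside the gene, as Myh7b does on chromosome 2. These microRNAs are shown because they tie the cardiac chains together by sequence. The mature forms are given 5′ to 3′ from RefSeq (GRCm38.p6), with the seed, bases 2 to 8, in capitals. The first lies at chr14:54949072-54949093 on the minus strand within Myh6, the second at chr14:54975710-54975731 on the minus strand within Myh7, and the third at chr2:155622893-155622913 on the plus strand within Myh7b.
mmu-miR-208a-3p: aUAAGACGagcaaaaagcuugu
mmu-miR-208b-3p: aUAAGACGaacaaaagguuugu
mmu-miR-499-5p: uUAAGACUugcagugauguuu
The seeds of the Myh6 and Myh7 microRNAs were the same, UAAGACG, and that of the Myh7b microRNA was UAAGACU. None of these microRNAs was measured on the arrays.

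The bases just before the annotated starts of the cardiac genes are shown because these genes changed in opposite directions between the groups. The windows of 250 bases are from RefSeq (GRCm38.p6), at chr14:54966608-54966857 for Myh6 and chr14:54994627-54994876 for Myh7, both on the minus strand and written 5′ to 3′ on that strand. The start used for Myh6 is not the outermost one, since the annotated gene reaches further upstream. Capitals mark matches on either strand to AACAAT, the core bound by SRY and other SOX proteins, or to CATTCC, the M-CAT element of TEAD factors.
Myh6: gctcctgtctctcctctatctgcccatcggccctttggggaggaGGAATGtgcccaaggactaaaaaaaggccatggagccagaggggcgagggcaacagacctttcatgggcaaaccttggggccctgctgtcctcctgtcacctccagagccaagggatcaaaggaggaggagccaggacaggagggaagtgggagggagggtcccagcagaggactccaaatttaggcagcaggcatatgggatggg
Myh7: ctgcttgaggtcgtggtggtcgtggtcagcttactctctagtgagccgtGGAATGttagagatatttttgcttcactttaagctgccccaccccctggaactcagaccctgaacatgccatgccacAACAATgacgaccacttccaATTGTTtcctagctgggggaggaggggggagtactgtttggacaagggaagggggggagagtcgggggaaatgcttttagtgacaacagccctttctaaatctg
AACAAT matched 2 times in the Myh7 window, beginning 124 and 104 bases before the start, and did not match in the Myh6 window. At least 1 match was present in 9.42% of 32851 such windows of all genes, and 2 or more in 0.904%. A second annotated Myh7 start, with an overlapping window, held both AACAAT matches too. CATTCC matched once in each printed window, 206 bases before the start of Myh6 and 201 before that of Myh7, but not in the second Myh7 window, and was present in 12.6% of all windows. AGGTCA, the hexamer of nuclear receptors, TATAAA and the CArG box of SRF matched in neither and were present in 14%, 12.4% and 1.47% of all windows. The windows of Myh3, Myh8, Myh9, Myh10 and Myh7b held no AACAAT, and that of Myh11 was not in the table. Only these exact patterns were searched, so variant forms of the sites were not looked for. Nothing about the binding of these factors follows from such matches or from their absence.

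Each heart was hybridized to 1 single-colour MouseRef-8 array, and the authors deposited mean bead intensities with a detection p-value per probe. Between 47.2% and 51.3% of the probes lay above background on each array, at a detection p-value under 0.05. hSRY-OFF replicate 3 gave the dimmest array (mean intensity 631), and the other means were 723 to 939. Values below are deposited intensities, on a linear scale, or log2 intensities after background correction and quantile normalization. Each change is the hSRY-ON mean minus the hSRY-OFF mean on this log2 scale, tested with limma (two-sided, n = 3 hearts per group) and adjusted by Benjamini-Hochberg over all 12970 tested probes. Nothing in the labels says that the hearts of a group came from separate litters, and 3 arrays per group limit the precision.

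All 8 heavy chain probes passed the filter of detection on at least 3 of 6 arrays, and 4 of them changed at an adjusted p under 0.05, where 27.5% of all tested probes did. The single Myh7 probe rose (13.8% of all probes were higher in hSRY-ON), and both Myh6 probes and 1 of the 2 Myh8 probes fell (13.7% of all probes were lower). The other 4 probes, of Myh8, Myh9, Myh10 and Myh11, did not pass the threshold. The hSRY-ON and hSRY-OFF hearts did not overlap in 5 of the 8 probes, against 45.2% of all tested probes. The median absolute log2 fold change was 0.47 over the 8 probes and 0.30 over all tested probes. With 8 probes, these shares describe the family and are not set apart from the rest of the array.

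**Figure D1:**
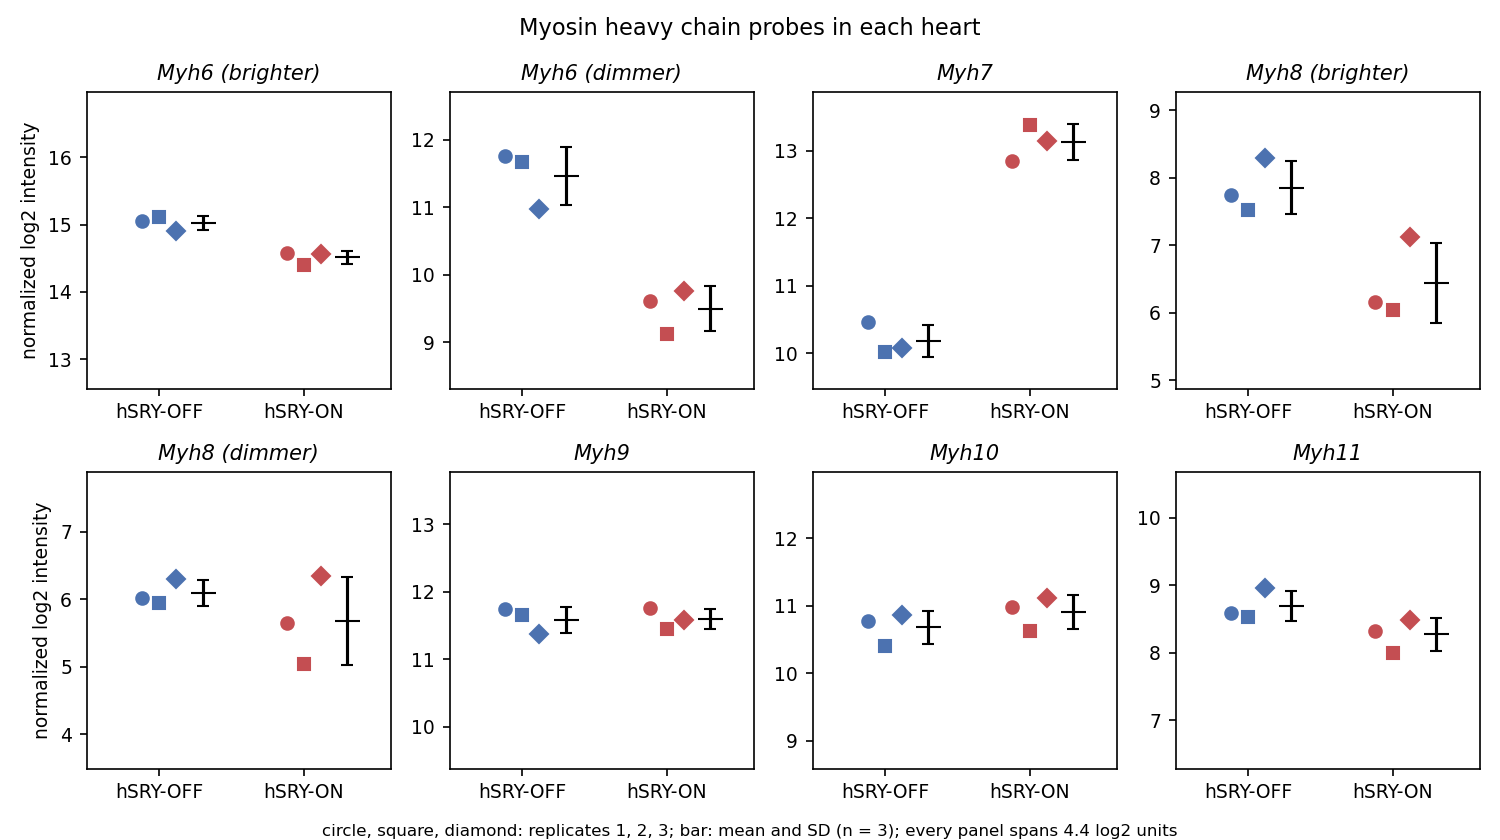
Normalized log2 intensity of the 8 myosin heavy chain probes (vertical axis) in the hearts of both groups (horizontal axis), with circles, squares and diamonds for replicates 1, 2 and 3 and bars for mean and SD (n = 3). Myh7 was higher and both Myh6 probes were lower in all 3 hSRY-ON hearts, while the groups overlapped for Myh9 and Myh10.

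Myh7, the beta chain, showed the largest change of the family in this fit (probe ILMN_2945491). Replicates 1, 2 and 3 of hSRY-OFF had deposited intensities of 1750, 1443 and 927, and those of hSRY-ON had 7073, 10374 and 8695. The lowest hSRY-ON heart was thus well above the highest hSRY-OFF heart before any normalization. On the normalized log2 scale the mean was 10.19 ± 0.24 (SD, n = 3) in hSRY-OFF and 13.13 ± 0.27 (SD, n = 3) in hSRY-ON hearts. The log2 fold change was 2.94 (standard error 0.18, 95% interval 2.52 to 3.37, limma adjusted p = 8.25e-05), a 7.68-fold higher level. Only 0.493% of the tested probes had a larger absolute change. Over 17 alternative settings, including each heart left out, the log2 fold change lay between 2.80 and 3.08 and passed the threshold in all 17.

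Myh6, the alpha chain and the chain of the mature mouse heart, was measured by 2 probes that fell by different amounts. The brighter probe (ILMN_2788836) had intensities of 37926, 39776 and 27092 in the controls, in replicate order, and of 21961, 19872 and 21930 in the hSRY-ON hearts. Every hSRY-ON heart was below every hSRY-OFF heart. The normalized means were 15.02 ± 0.10 (SD, n = 3) and 14.51 ± 0.10 (SD, n = 3) in the hSRY-OFF and hSRY-ON hearts. The log2 fold change was -0.51 (standard error 0.12, 95% interval -0.79 to -0.23, limma adjusted p = 0.0185), that is, 1.42-fold lower in hSRY-ON. This probe was among the brightest of the array, with its highest intensity at 82.9% of the maximum of the same array, and 28.8% of the tested probes had a larger absolute change. Its call was not stable. It was lost without normalization between arrays (-0.70, adjusted p = 0.108), with the replicate number as a block (adjusted p = 0.053), and on leaving out replicate 1 or 2 of either group, although the log2 fold change stayed between -0.70 and -0.43 in all 17 settings.

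The dimmer Myh6 probe (ILMN_2640008) had intensities of 4081, 4155 and 1646 in the hSRY-OFF replicates and 853, 689 and 943 in the hSRY-ON replicates. Again no hSRY-ON heart reached the lowest hSRY-OFF heart. The normalized means were 11.47 ± 0.43 (SD, n = 3) and 9.50 ± 0.33 (SD, n = 3), and the log2 fold change was -1.97 (standard error 0.25, 95% interval -2.55 to -1.38, limma adjusted p = 0.00154), a 3.91-fold lower level. In the 17 alternatives it ranged from -2.21 to -1.78 and passed the threshold each time. The difference between the brighter and the dimmer probe within an array was 3.56 ± 0.34 (SD, n = 3) in hSRY-OFF and 5.02 ± 0.24 (SD, n = 3) in hSRY-ON hearts on the log2 scale, a gap of 1.46 between the groups (exact permutation test, two-sided, p = 0.1, the smallest that 3 against 3 can give). The direction of Myh6 was therefore shared by its probes, while the size of the change was not. The brighter probe reached 82.9% of its array maximum, and whether this limited its measured change was not tested. The files give no probe sequences, so neither transcript variants of Myh6 nor cross-hybridization between the similar Myh6 and Myh7 transcripts was tested.

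**Figure D2:**
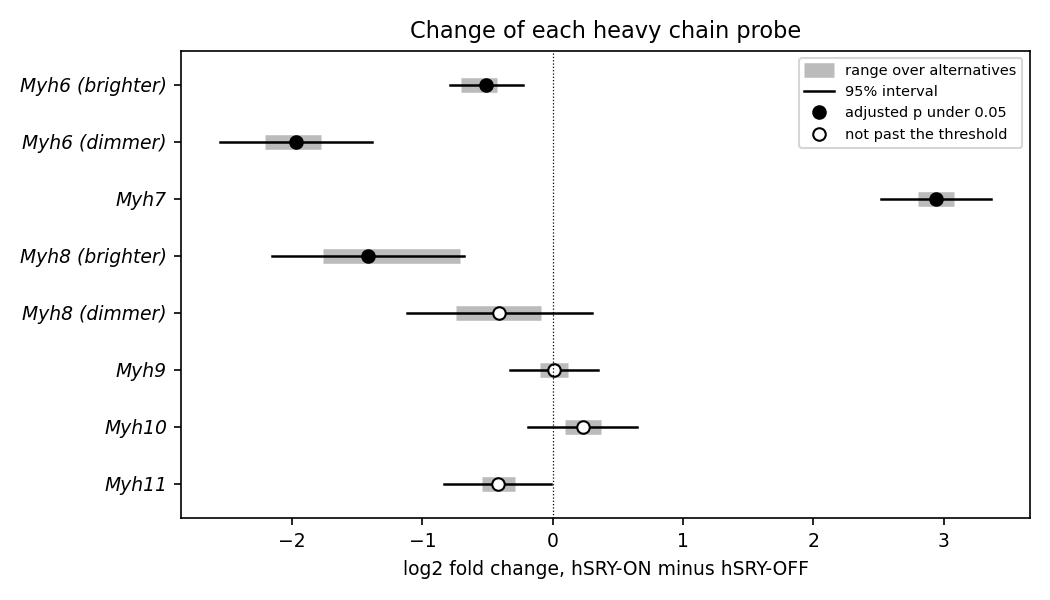
Log2 fold change (hSRY-ON minus hSRY-OFF, horizontal axis) of each heavy chain probe (vertical axis), with 95% intervals as lines, filled points for an adjusted p under 0.05 and grey bars for the range over the 17 alternative settings (16 for the dimmer Myh8 probe). Myh7 lies at 2.94 and the Myh6 probes at -0.51 and -1.97.

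The balance of the cardiac chains was followed within each heart as the log2 intensity of Myh7 minus that of the brighter Myh6 probe. Since probes differ in brightness, only the change of this difference between groups is read, not its level. In replicate order it was -4.59, -5.09 and -4.83 for the controls and -1.72, -1.02 and -1.43 for the hSRY-ON hearts. All hSRY-ON hearts were above all hSRY-OFF hearts. The shift towards Myh7 was 3.45 on the log2 scale, or 10.9-fold (exact permutation test, two-sided, p = 0.1, the smallest possible with 3 against 3). With the dimmer Myh6 probe the shift was 4.91, or 30.1-fold (the same exact test, p = 0.1), so its size depends on the probe taken for Myh6. With the brighter probe it ranged from 3.25 to 3.60 over the alternative normalizations and with each heart left out.

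**Figure D3:**
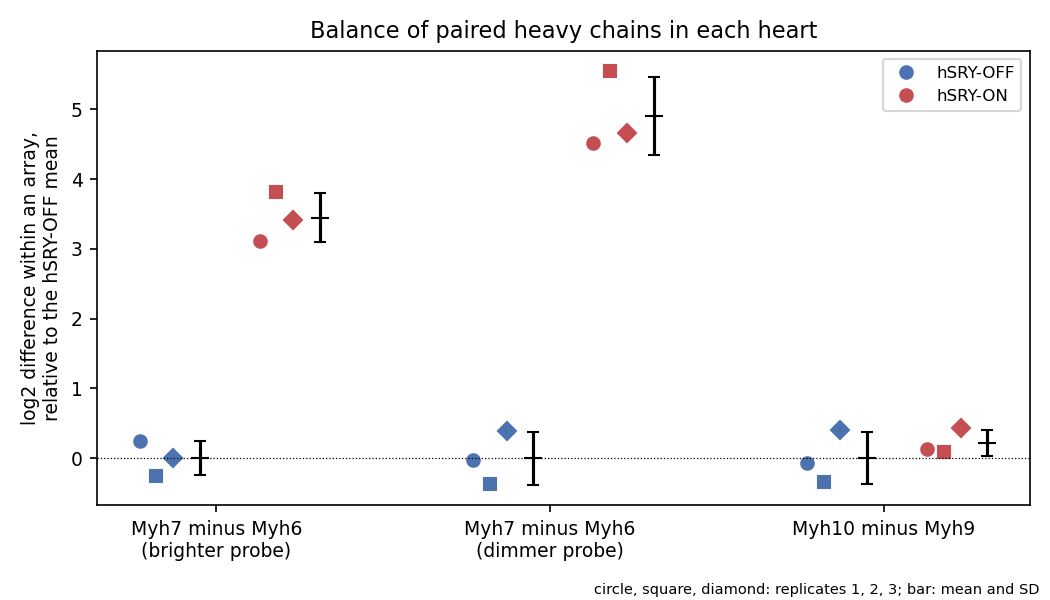
Log2 difference between paired heavy chain probes within each array, shown relative to the hSRY-OFF mean (vertical axis), for Myh7 minus either Myh6 probe and for Myh10 minus Myh9 (horizontal axis), with bars for mean and SD (n = 3). The hSRY-ON hearts were shifted by 3.45 and 4.91 for the cardiac pair, and by 0.22, with overlapping groups, for the non-muscle pair.

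Markers of heart muscle cells were read beside these changes. Of 9 cardiomyocyte markers 8 were on the array, all were detected, and 4 fell, while none rose. The fallen ones were Tnni3, Ryr2, Pln and Mybpc3. The same probes are counted again below, in the adult contraction list or, for Mybpc3, among the thick filament partners. Actn2 (0.13), Actc1 (-0.20), Ttn (-0.21) and Csrp3 (-0.33) did not pass the threshold. Their summed normalized intensity ranged from 114435 to 118578 in the controls and from 93497 to 110799 in the hSRY-ON hearts. Of 4 ventricular markers the transcription factor genes Irx4 and Hey2 fell by 2.01 and 0.79 on the log2 scale. The probes of the light chain genes Myl2 and Myl3 lay at 88.6% to 99.9% and 88.4% to 98.9% of the array maximum, so their values of -0.02 and -0.03 do not show stability. The ventricular sum was 86226 to 87996 in the controls and 82474 to 85694 in the hSRY-ON hearts, but without Myl3 the ranges of 42386 to 44850 and 42454 to 42624 overlapped. Of 7 atrial markers 6 were on the array and all 6 were detected. Myl4 fell (-0.99) and Bmp10 rose (1.43), with calls lost in 7 and 6 of the 17 alternatives. The atrial sum was 93870 to 95648 in the controls and 73057 to 96569 in those with hSRY-ON. Without Nppa, which lay at 83.5% to 93.7% of the array maximum, it was 53850 to 55812 and 29217 to 52730. Every hSRY-ON heart was then lower. The brightest gene left in this sum was Myl4, at 23.1% to 72.9% of the array maximum. Sln (-0.16) and Myl7 (-0.30) did not pass the threshold. The part of these shifts in the change of Myh6 and Myh7 was not tested.

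Myh8, the perinatal skeletal chain, was dim in these hearts. Its brighter probe (ILMN_1223735) had intensities of 396, 385 and 355 in the controls and 197, 197 and 259 in the hSRY-ON hearts, and was above background on all 6 arrays. The groups did not overlap, with hSRY-ON replicate 3 standing nearest to the controls. Its normalized mean was 7.86 ± 0.40 (SD, n = 3) in hSRY-OFF and 6.44 ± 0.59 (SD, n = 3) in hSRY-ON hearts. It fell by 1.42 on the log2 scale (standard error 0.32, limma adjusted p = 0.0146), or 2.67-fold lower. Between settings this value moved from -1.76 to -0.71, the latter without background correction, and the call was lost when hSRY-ON replicate 1 was left out (-1.28, adjusted p = 0.0511). The dimmer Myh8 probe (ILMN_2978038) was above background on 3 hSRY-OFF and 2 hSRY-ON arrays, with intensities of 218, 229 and 183 against 178, 163 and 206. Here hSRY-ON replicate 3 lay within the controls, and the log2 fold change of -0.41 (95% interval -1.12 to 0.30, limma adjusted p = 0.353) did not pass the threshold in any setting that tested it.

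Skeletal muscle markers went both ways beside Myh8. Of 13 markers 12 were on the array and 9 were detected on at least 1 array, whereas the defining genes Tnnt3, Tnnc2 and Myod1 were above background on none. Among the 7 tested, Myl1, Tnni2, Pvalb, Myog and Casq1 fell. Actn3, the fast-fibre alpha-actinin, rose from no detection on the hSRY-OFF arrays to a level at least 3.10-fold higher (limma adjusted p = 0.000716). The summed intensity of the 12 markers on the array was 8498 to 9465 in the controls and 1336 to 2460 in the hSRY-ON hearts. Most of it, 90.1% in hSRY-OFF hearts, came from Myl1, and without Myl1 the sums were 835 to 958 and 341 to 443. The part of these markers in the result for Myh8 was not tested. Of the adult skeletal chains, Myh1 (2 probes), Myh2 and Myh4 were above background on 0 of 6 arrays, with intensities between 129 and 178, so no level was measured for them. The table held no probe under Myh13, Myh14 or Myh15.

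Myh11, the smooth muscle chain, was lower in hSRY-ON hearts without passing the threshold. Its probe (ILMN_2622217) had intensities of 594, 615 and 488 in the hSRY-OFF and 423, 385 and 465 in the hSRY-ON replicates. After normalization the groups still did not overlap, although by little, with 8.53 in the lowest hSRY-OFF and 8.48 in the highest hSRY-ON heart. The log2 fold change was -0.42 (95% interval -0.83 to -0.01, limma adjusted p = 0.114), and the adjusted p-value lay between 0.0738 and 0.283 over the 17 alternatives. Of 8 smooth muscle markers, 6 were tested. Acta2, Tagln and Mylk rose, Smtn and Synpo2 fell, and the defining genes Cnn1 and Lmod1 were detected on no array. The summed intensity of the list was 41512 to 48410 in the controls and 57151 to 63943 in the hSRY-ON hearts. This was opposite in direction to Myh11. In hSRY-OFF hearts 60.8% of the sum came from Acta2, whose probe lay at 62% to 89% of the array maximum. Without Acta2 the sums were 16611 to 18372 and 19148 to 22528. The brightest gene left in them was Des, which did not pass the threshold.

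The non-muscle chains showed no detectable change. Myh9 (ILMN_2672626) had intensities of 4024, 4126 and 2157 in hSRY-OFF and 3356, 2926 and 2999 in hSRY-ON hearts. The low value was that of the dimmest array, and after normalization the groups overlapped at 11.59 ± 0.19 (SD, n = 3) and 11.60 ± 0.15 (SD, n = 3). The log2 fold change was 0.01 with a 95% interval of -0.33 to 0.35 (limma adjusted p = 0.964). Myh10 (ILMN_1226114) had intensities of 2146, 1815 and 1540 in hSRY-OFF and 2018, 1727 and 2204 in hSRY-ON hearts, which overlapped. Its log2 fold change was 0.23 (95% interval -0.19 to 0.65, limma adjusted p = 0.379). The within-array difference of Myh10 minus Myh9 was -0.91 ± 0.38 (SD, n = 3) in hSRY-OFF and -0.69 ± 0.19 (SD, n = 3) in hSRY-ON hearts (exact permutation test, two-sided, p = 0.4). Myh9 is abundant in blood-derived and endothelial cells. Of 7 macrophage markers 5 rose, with sums of 2931 to 3952 in the controls and 6878 to 7142 in the hSRY-ON hearts, while the endothelial sums of 21117 to 22801 and 20348 to 21897 overlapped, with Kdr detected on no array. Of the 6 tested endothelial genes Cdh5 and Tek fell, by 0.72 and 0.45, and Emcn rose by 0.53, with the calls of Tek and Emcn lost in 9 and 6 of the 17 alternatives. In the fibroblast list 1 of 7 tested genes was called, Tcf21, which rose by 0.76, with the call lost in 2 of the 17 alternatives. The fibroblast sums were 31448 to 33726 and 28738 to 32072, and without Dcn, the brightest gene, 19019 to 19747 and 18956 to 20424. Of 6 liver markers 4 were detected, though not Alb or Serpina1a, and 2 rose, with sums of 246 to 294 in the controls and 1256 to 3012 in hSRY-ON hearts. The erythroid sum was mostly Hba-a1 (82.0% in the controls), whose probe lay at 99% to 100% of the array maximum and gives no reading of a change. Hbb-b1 fell by 1.29 (limma adjusted p = 0.00502), and without Hba-a1 the sums were 5920 to 15338 and 4872 to 9535. The part of these lists in the values of Myh9 and Myh10 was not tested.

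Genes that act with the heavy chains were read from lists, with 1 probe per gene, the brightest tested one. Over all 9660 tested genes 28.8% were called and the median log2 fold change was 0.00. Of 9 tested light chain genes, 2 fell and none rose (median -0.08). The fallen ones were Myl1 (-2.66, standard error 0.29, limma adjusted p = 0.000895), which encodes a fast skeletal essential light chain, and Myl4 (-0.99, adjusted p = 0.0407), the atrial essential light chain. Myl4 lost its call in 7 of the 17 alternatives, among them 5 of the 6 with a heart left out (adjusted p up to 0.123). Of 10 thick filament and assembly partners, 4 fell and none rose (median -0.44). The largest decreases were in Trim63 (-1.79, standard error 0.19, limma adjusted p = 0.000815) and Trim54 (-1.48), which encode the ring-finger proteins MuRF1 and MuRF3 of the sarcomere. Unc45b, the chaperone that folds the myosin head, fell by 0.74 (limma adjusted p = 0.0492), and cardiac myosin-binding protein C, Mybpc3, by 0.51, with calls lost in 9 and 6 of the 17 alternatives.

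**Figure D4:**
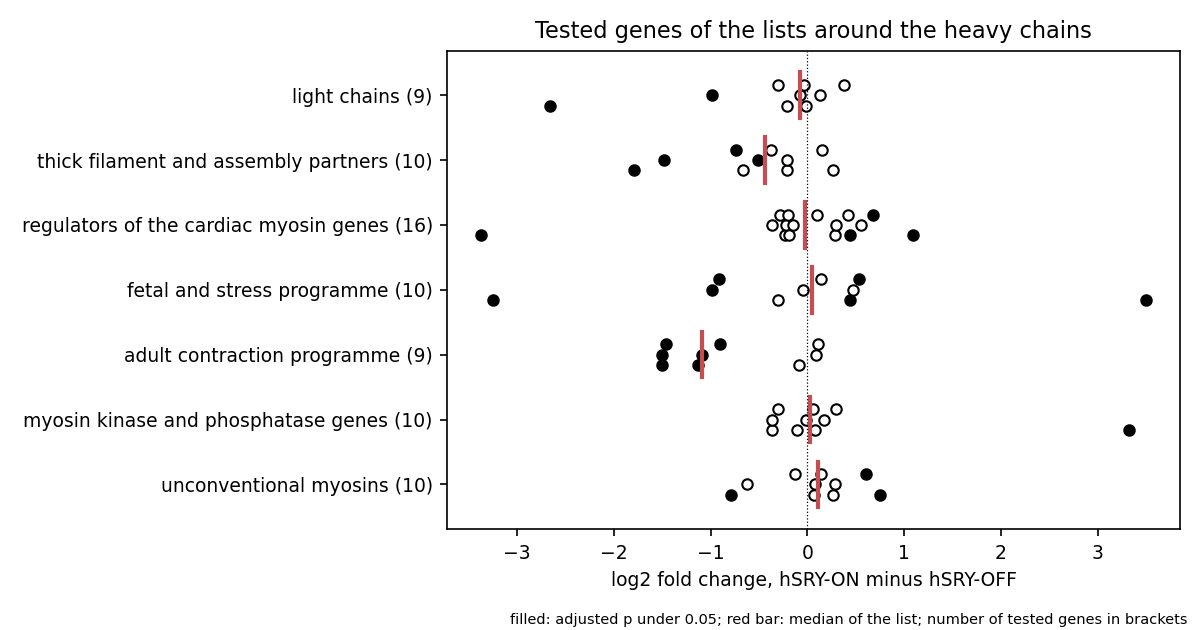
Log2 fold change (hSRY-ON minus hSRY-OFF, horizontal axis) of the tested genes in each list around the heavy chains (vertical axis, number of tested genes in brackets), with filled points for an adjusted p under 0.05 and red bars for medians. The adult contraction list has a median of -1.09, and the other medians lie between -0.44 and 0.11.

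Regulators known from work on the cardiac myosin genes numbered 16 tested genes, of which 3 rose and 1 fell, with a median of -0.02. Tbx5 rose by 1.09 (standard error 0.29, limma adjusted p = 0.0282) and Nkx2-5 by 0.68 (adjusted p = 0.00493). Both encode core cardiac transcription factors, as does Gata6, which rose by 0.45 (adjusted p = 0.0431). The call of Tbx5 was lost in 6 of the 17 alternatives, 5 of them with a heart left out (adjusted p up to 0.0911), and that of Gata6 in 8. Rxrg encodes a retinoid X receptor, a partner of the thyroid hormone receptors, and was above background on 3 of 3 hSRY-OFF and 0 of 3 hSRY-ON arrays. Its level was at least 7.22-fold lower in hSRY-ON hearts (limma adjusted p = 2.49e-05), a bound in which the hSRY-ON arrays took the lowest normalized signal of any probe detected there. The other retinoid X receptor genes, Rxrb and Rxra, were detected on all arrays and did not pass the threshold. They stood at -0.21 (limma adjusted p = 0.349) and -0.19 (adjusted p = 0.467). The thyroid hormone receptor gene Thra changed by 0.10 (limma adjusted p = 0.533), and Thrb was not among the tested genes.

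Of 10 genes of the fetal and stress programme of the heart, 3 rose and 3 fell (median 0.05). Tnnt1, slow skeletal troponin T, rose by 3.51 (standard error 0.11, limma adjusted p = 1.18e-05), and Acta2, smooth muscle actin, by 0.53 (adjusted p = 0.0165). The third was Ankrd1, at 0.44, and the calls of Acta2 and Ankrd1 were lost in 3 and 9 of the 17 alternatives. Acta1, skeletal actin, fell by 3.25 (standard error 0.28, limma adjusted p = 0.000389), and Myl4 and Rcan1 were the others that fell, with the call of Rcan1 lost in 3 alternatives. The natriuretic peptide genes Nppa, near the array maximum as given above, and Nppb stood at 0.14 and 0.47 without passing the threshold. Of 9 genes of the adult contraction programme 6 fell and none rose (median -1.09). Cpt1b, which imports fatty acids into mitochondria, fell (-1.50, standard error 0.21, limma adjusted p = 0.00203). Pln, Tnni3, Ryr2 and Ckm fell by 1.47, 1.13, 1.09 and 0.90. Kcnd2, a potassium channel gene, was above background on no hSRY-ON array and at least 1.74-fold lower there (limma adjusted p = 0.00822), a bound that gives it no place in this order. The probe of Atp2a2, the calcium pump, stood at -0.09 (limma adjusted p = 0.59), at 74.1% to 86.6% of the array maximum.

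Among kinases and phosphatases that act on myosin, 1 of 10 tested genes was called. Mylk, smooth muscle myosin light chain kinase, rose by 3.33 (standard error 0.16, limma adjusted p = 3.59e-05), while the list had a median of 0.02. Of 10 tested unconventional myosins, taken by symbols of Myo followed by a digit, 2 rose and 1 fell (median 0.11). Myo7a rose by 0.75 (standard error 0.18) and Myo1c by 0.60, with calls lost in 2 and 6 of the 17 alternatives, and Myo18a fell by 0.78 (standard error 0.13, limma adjusted p = 0.00491).

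The genes with the most similar pattern over the 6 arrays were found by Pearson correlation of the normalized log2 intensities, which here mostly follows the difference between the groups. For Myh7 these were Upp1 (r = 0.999), Leprel1, now named P3h2 (0.999), and Fst (0.998). Upp1 rose by 1.27 and Leprel1 by 3.02, and Fst, which encodes the activin antagonist follistatin, was detected on no hSRY-OFF array, so that its r rests on 3 values at background, and was at least 6.21-fold higher in hSRY-ON hearts (limma adjusted p = 9.78e-05). For the brighter Myh6 probe they were Eef1d (r = 0.998), Reep1 (0.998) and Aldh16a1 (0.997), with log2 fold changes of -0.27, -0.60 and -0.65, of which the first did not pass the threshold. For Myh10 they were Polr2d (r = 0.988), Eef1g (0.980) and Ddost (0.980), and for Myh11 Mtx1 (r = 0.995), Fv1 (0.994) and Cd276 (0.992), none of which changed at an adjusted p under 0.05.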

How the data were processed

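Total RNA of 6 hearts was hybridized to MouseRef-8 v2.0 BeadChip arrays. Deposited for each probe were its mean bead intensity, which the authors left linear and neither normalized nor background-subtracted, and a detection p-value set against negative-control beads. The summarising software is not given in the sources used here. limma appears in the submitters' processing notes, and the R package TCC in the methods, without settings. No genome build enters the values.

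With R 4.3.3 and limma 3.58.1, neqc corrected the background from the detection p-values, added 16, quantile normalized and took log2. Probes with a detection p-value under 0.05 on at least 3 of 6 arrays were fitted with lmFit and eBayes on the group alone and adjusted by Benjamini-Hochberg over all tested probes. The steps were tested on simulated data. Figures used Python 3.11.15 and matplotlib 3.10.9.

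The genes of the family and the lists were chosen with earlier results of these data known. Genes outside the family were named by rule as up to 4 called genes per list, the 2 that increased most and the 2 that decreased most, the 3 genes most like Myh6, Myh7, Myh10 and Myh11, and the other class II heavy chains. Unc45b, Mybpc3, Gata6, Rxra, Rxrb, Thra, Thrb, Ankrd1, Rcan1, Nppa, Nppb, Tnni3, Pln, Ryr2, Ckm, Atp2a2 and the single genes given for marker lists were named after their values were seen. List genes were matched by symbol, or by another name in RefSeq (GRCm38.p6).

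Alternatives were other background corrections, normalizations, probe filters and variance models, the replicate number as a block, and each heart left out. The comparison of the Myh6 probes within an array, and the Myh7 difference taken with the dimmer Myh6 probe, were added after seeing the data. Same-numbered hearts of the groups did not deviate together (correlations of -0.02, 0.04 and -0.07 across probes), so the numbers were not taken to pair them.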

Additional observations from a re-analysis of the deposited data

How the results depend on the processing

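Myh7 and the dimmer Myh6 probe kept their direction and their side of the threshold in all 17 alternatives, and Myh10, Myh11 and the dimmer Myh8 probe kept their direction and never passed. Without normalization between arrays, 1897 probes were called, the array-wide median change was -0.12 on the log2 scale, the brighter Myh6 probe stood at -0.70 (adjusted p = 0.108) and Myh9 turned to -0.093, and 2 regulators and 1 unconventional myosin were called. Without hSRY-OFF replicate 3, Myh9 was -0.10, and without hSRY-ON replicate 1 it was -0.07. With the replicate number as a block, which the numbers do not justify here, the brighter Myh6 probe was -0.51 (adjusted p = 0.053), and this changed the call of no other heavy chain probe. The called share of higher probes was 50.1% with quantile normalization, 38.5% without normalization, and 65.7% and 59.8% when arrays were scaled to detected or to uncalled probes.

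With each heart left out in turn, 2206 to 3669 probes were called, 2 to 4 of them heavy chain probes. The brighter Myh6 probe ranged from -0.56 to -0.43, the brighter Myh8 probe from -1.76 to -1.20, and Myh9 from -0.10 to 0.086. Calls ranged from 1 to 2 light chains, 2 to 5 thick filament partners, 1 to 3 regulators, 2 to 6 fetal and stress genes, 1 to 2 kinase and phosphatase genes and 1 to 3 unconventional myosins. Without background correction 7 thick filament partners and 2 kinase and phosphatase genes were called, and without a probe filter 1 light chain and 2 regulators. Of 461 values of the 28 other named genes, 430 kept direction and side of the threshold, 27 lost the call and 2 gained it, and Eef1g turned, to -0.20 without normalization and -0.013 when scaled on uncalled probes. The causes were not tested. The within-array tests can give no p under 0.1.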
